A study of Mus musculus with 2 samples.

Results

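Sharp SF1 ChIP regions with a moderately high score are described here: stretches of mouse chromatin recovered with an antibody against SF1 (NR5A1), narrower than 3000 bp, on chromosomes 1 to 19, with a score of 31 to 49. This rule held for 619 of the 16249 regions in the list, which is 3.81% (95% interval 3.52 to 4.12%). The regions were chosen by score and width, so the values of both are given as a description. The tissue was whole uterus from C57BL6/6J mice aged 8 weeks that had been ovariectomized at 6 weeks of age and kept for another 2 weeks so that hormones made by the ovary would fall. There was 1 library made with the SF1 antibody and 1 input library made without antibody, both from mice treated this way. The labels give no genotype beyond the strain, no intact or SF1-lacking group and no replicate, and they do not say whether tissue was pooled. Every value below therefore describes 1 ChIP library, with no spread between animals.

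SF1 is an orphan nuclear receptor, a transcription factor of the NR5A family that binds DNA mostly as a monomer at an extended nuclear receptor half-site. In the adrenal cortex and the gonads it acts on genes for steroid hormone synthesis. Among them are Star, which moves cholesterol into mitochondria, and Cyp11a1, which cuts the cholesterol side chain. In the endometrium it is best known from endometriosis, where its presence is linked to local steroid synthesis, and the title of the series concerns endometrial SF1 and cystic glands. A transcription factor at a single site typically gives a narrow ChIP region, while several nearby sites can run together into a wide one. Which genes the sharp regions lie in or beside, and which sequence they hold, was not analysed here, because the list is on mm9 and no sequence or gene coordinates of that build were used. Whether SF1 itself occupies these regions was not tested.

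The score is 1 whole number per region that the authors deposited without a name, so its unit is unknown, as is the sequencing depth behind it, and it is used only to order regions within this list. Of the 16041 autosomal regions, 89.9% scored under 31 and 1.96% scored 50 or more, so scores of 31 to 49 lie in the upper part of the list and below its top. Sharp regions made up 619 of the 1304 autosomal regions in that score range. The remaining 685 were 3000 bp or wider and are called wide regions below. The main comparison is with the 11384 autosomal regions under 3000 bp that scored under 31, called lower-scoring sharp regions. The 100 sharp regions scoring 50 or more serve as a further reference. A further 4 sharp regions in the score range lay on X and were left out by the rule.

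Scores of the 619 regions thinned out upward, with a median of 35 and quartiles of 32 and 40. A score of 31 to 35 was given to 348 of them, which is 56.2% (52.2 to 60.2%), and a score of 41 or more to 139. At the lower limit, 97 sharp autosomal regions scored 31 and 107 scored 30. At the upper limit, 15 scored 49 and 10 scored 50. At the limit of width, 35 regions lay within 100 bp below it while 32 regions of the same scores lay within 100 bp above it. Neither limit falls in a gap of the list, so the set is a slice of a continuous range and not a separate class.

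The sharp regions were not the narrowest ones of the list. Their median width was 2230 bp (95% interval 2177 to 2286 bp), with quartiles of 1928 and 2616 bp, and together they covered 1.4 Mb, 3.30% of the sequence in the list. Lower-scoring sharp regions had a median width of 1815 bp, a difference of 415 bp (360 to 472 bp). Inside that lower-scoring set width also rose with score, with a Spearman correlation of 0.29. The median went from 1624 bp at scores of 8 to 12 to 2098.5 bp at 26 to 30. The 100 sharp regions scoring 50 or more had a median of 2333 bp (2219 to 2418 bp), so greater width was not particular to scores of 31 to 49. Very narrow regions were rare: 7 of the 619 were under 1500 bp, 1.13% (0.456 to 2.32%), against 2489 of the lower-scoring sharp regions, 21.9% (21.1 to 22.6%). A width of 2500 bp or more was found in 33.1% (29.4 to 37.0%) of the former and in 14.2% (13.5 to 14.8%) of the latter. The median was wider on all 19 autosomes of this 1 library. Width was part of the rule, so the difference in median width is a description. Its size changed with the limit, from 218 bp at 2000 bp to 631 bp at 4000 bp. Put the other way, regions scoring 31 to 49 made up 3.92 of every 100 sharp regions scoring under 50 at widths from 1500 to under 2000 bp, 7.60 from 2000 to under 2500 bp and 11.3 from 2500 to under 3000 bp.

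**Figure D1:**
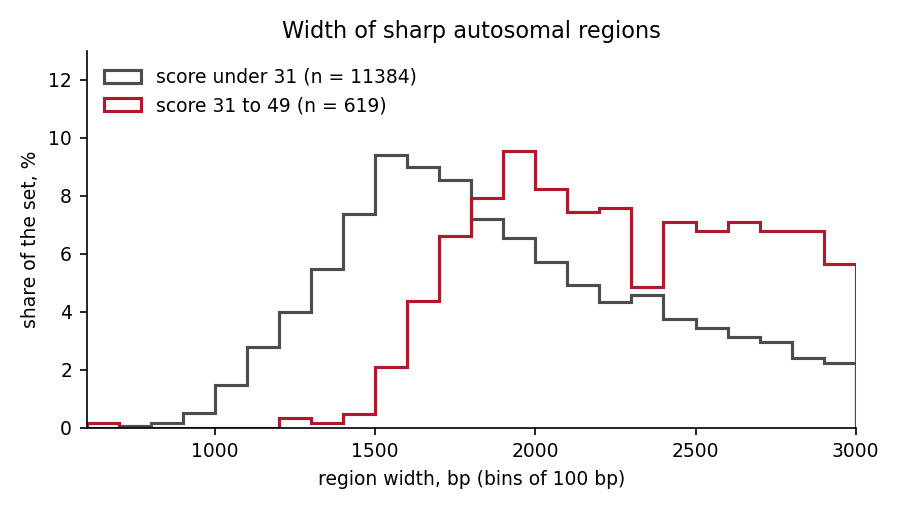
Width in bp (x axis, bins of 100 bp) of the 619 sharp regions scoring 31 to 49 (red) and the 11384 sharp autosomal regions scoring under 31 (grey), as the percent of each set (y axis). The red outline rises from near 1500 bp, where the grey one is at its highest, and stays above it from before 2000 bp to the limit of 3000 bp.

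The narrowest region, chr3:5860354-5861042, was only 688 bp wide, yet it scored 45, and it lay 283 kb from the nearest listed region, which scored 62. It stood well below the next ones in width. These were chr9:65752244-65753509 with 1265 bp and a score of 31, and chr18:3382543-3383832 with 1289 bp and a score of 35. Then came chr18:34239307-34240669 with 1362 bp and a score of 31, and chr9:60767744-60769157 with 1413 bp and a score of 45. The 5 widest regions measured 2989 to 2999 bp and scored between 33 and 42, below the 45 of the narrowest. They were chr4:144782564-144785563, chr4:125932095-125935090, chr19:47223673-47226668, chr16:31325301-31328290 and chr17:35976186-35979175. Of these, the region on chromosome 17 had its nearest neighbour 82 bp away, and the second one on chromosome 4 had it 981 bp away.

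Most of the sharp regions stood alone at short range. Another listed region of any score or width lay within 10 kb, measured from edge to edge, for 198 of the 619 regions, 31.99% (28.3 to 35.8%). Among lower-scoring sharp regions it was 4305 of 11384, 37.8% (36.9 to 38.7%). The difference was -5.83 percentage points (-9.60 to -1.89). The lower share came together with greater width, although in both sets wider regions lay closer to a neighbour, with Spearman correlations of width and distance of -0.18 and -0.17. No p-value is given, since regions are not replicates, and these intervals treat regions as independent, which neighbours are not. The difference shrank to -2.72 points (-6.43 to 1.21) when regions less than 1 kb apart were merged first, to -2.82 (-6.14 to 0.587) with a width limit of 4000 bp and to -1.65 (-7.45 to 4.44) with a lowest score of 36. It concerns sharp regions only and not all regions of these scores. Of the 685 wide regions that the width limit leaves out, 60.1% (56.4 to 63.8%) had another region within 10 kb.

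The shortfall was seen at short distances. A neighbour within 1 kb was found for 6.30% of the sharp regions (4.52 to 8.51%) and 10.9% of the lower-scoring ones (10.4 to 11.5%), a difference of -4.63 points (-6.50 to -2.34). By score this share was 12.6% at 8 to 12, 11.9% at 13 to 16 and 10.2% at 17 to 20. It was already 7.59% at 21 to 25 and 8.1% (6.13 to 10.5%) at 26 to 30. Then came 5.75% (3.55 to 8.74%) at 31 to 35, 4.55% at 36 to 40, 9.35% at 41 to 49 and 7% (2.86 to 13.9%) at 50 or more. Within 5 kb it was 19.4% against 25.5%, a difference of -6.12 points (-9.27 to -2.69). Shares within 5 and 10 kb include the regions with a neighbour within 1 kb. For a nearest region 1 to 5 kb away, the shares were 13.1% and 14.6%, with overlapping intervals. From 5 to 10 kb they were 12.6% and 12.3%, with no shortfall. Without adjustment for width, the shortfall therefore lay mostly within 1 kb. Within 25 kb the shares were 57.0% and 58.1%, with a difference of -1.10 points (-5.21 to 2.95), and within 100 kb they were 87.9% and 86.6%, with a difference of 1.26 points (-1.64 to 3.81). In turn, the nearest region lay between 10 and 25 kb away for 25.04% (21.7 to 28.6%) of the sharp regions and for 20.3% (19.6 to 21.1%) of the lower-scoring ones. The median distance was 20658 bp (17277 to 23271 bp) against 17392 bp (16803 to 18215 bp), and the interval of that difference, 3266 bp, ran from -214 to 5945 bp. Median numbers of listed regions at a larger scale were alike: 50 kb to either side held a median of 1 other region in both sets, and 500 kb to either side a median of 12 against 13.

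**Figure D2:**
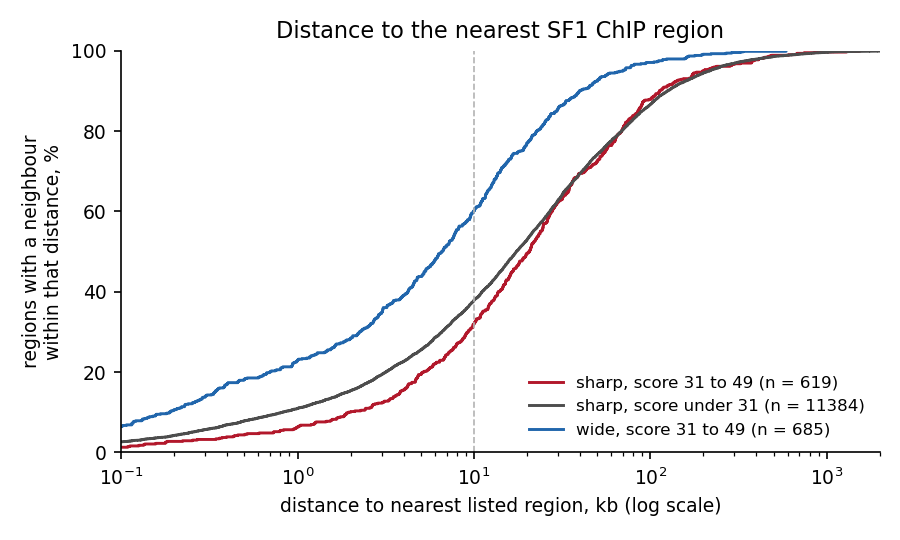
Cumulative percent of regions (y axis) whose nearest listed region lies within the distance on the x axis (kb, log scale), for sharp regions scoring 31 to 49 (red), sharp regions scoring under 31 (grey) and wide regions scoring 31 to 49 (blue), with a dashed line at 10 kb. At that line the curves stand at 31.99%, 37.8% and 60.1%, and the red and grey curves have met by 25 to 100 kb.

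At equal width the contrast with lower-scoring regions was larger. At widths from 1500 to under 2000 bp, 46 of 189 sharp regions scoring 31 to 49 had a neighbour within 10 kb, 24.3% (18.4 to 31.1%), against 35.5% (34.1 to 36.9%) of 4631 lower-scoring ones. From 2000 to under 2500 bp it was 67 of 218, 30.7% (24.7 to 37.3%), against 43.3% (41.4 to 45.2%) of 2651. From 2500 to under 3000 bp it was 83 of 205, 40.5% (33.7 to 47.5%), against 47.8% (45.3 to 50.3%) of 1613. The differences were -11.1 (-17.2 to -4.24), -12.5 (-18.9 to -5.68) and -7.31 points (-14.5 to 0.167), so the last interval reached 0. Averaged over width classes in the proportions of the 619 regions, the difference was -10.2 points (-14.0 to -6.17). It was -6.41 (-10.1 to -2.31) after merging within 1 kb and -6.64 (-12.3 to -0.414) with a lowest score of 36, both with intervals below 0. These pairings with width classes were added after seeing the data. The 4000 bp limit and the 25 kb distance were not paired with width classes.

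**Figure D3:**
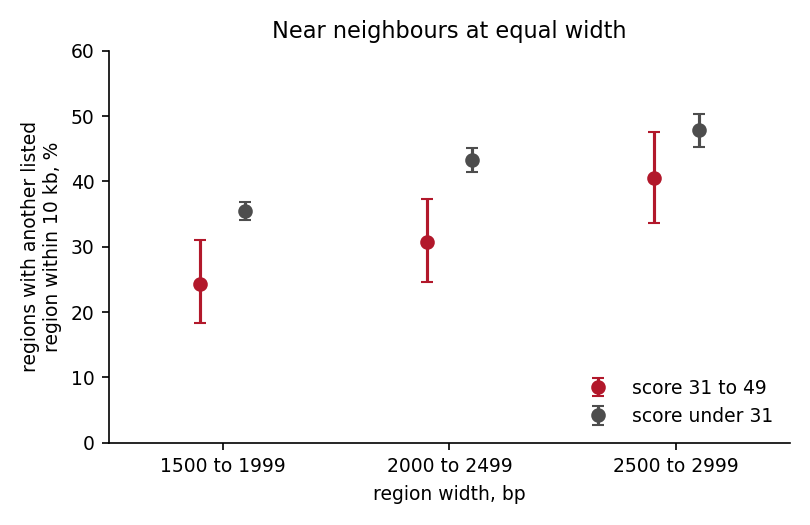
Percent of regions with another listed region within 10 kb (y axis) in 3 classes of width in bp (x axis), for sharp regions scoring 31 to 49 (red) and under 31 (grey), with exact 95% intervals as bars. The red points, at 24.3%, 30.7% and 40.5%, lie below the grey ones, at 35.5%, 43.3% and 47.8%, and both rise with width.

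At equal width, near neighbours became rarer with rising score as far as scores of 31 to 35. At the mix of widths of the 619 regions, from 1500 bp up, they were found for 48.98% (45.9 to 52.1%) of regions with scores of 8 to 12. They were found for 45.1% (43.1 to 47.0%) at 13 to 16, 39.2% at 17 to 20, 37.9% at 21 to 25 and 34.99% (31.2 to 39.1%) at 26 to 30. The share reached 29.1% (24.4 to 34.4%) at 31 to 35. Inside the range of the sharp regions the fall did not go on: the share was 34.7% (26.9 to 43.8%) at 36 to 40 and 36.4% (28.2 to 46.0%) at 41 to 49, on 132 and 137 regions, and these 3 intervals overlap. Among the sharp regions scoring 50 or more it was 27.4% (19.6 to 39.2%). Without any adjustment for width, 30% (21.2 to 39.98%) of those had a near neighbour, a difference from the 31.99% of 1.99 points (-8.64 to 11.5), an interval too wide to tell the sets apart or to call them alike. Within the 619 regions, whose range of scores the rule cut, the Spearman correlation of score and distance to the nearest region was -0.01. Without adjustment for width, shares were nearly level from 17 to 30. They were 35.1% at 17 to 20, 35.3% at 21 to 25 and 33.6% at 26 to 30, before 28.7% at 31 to 35.

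**Figure D4:**
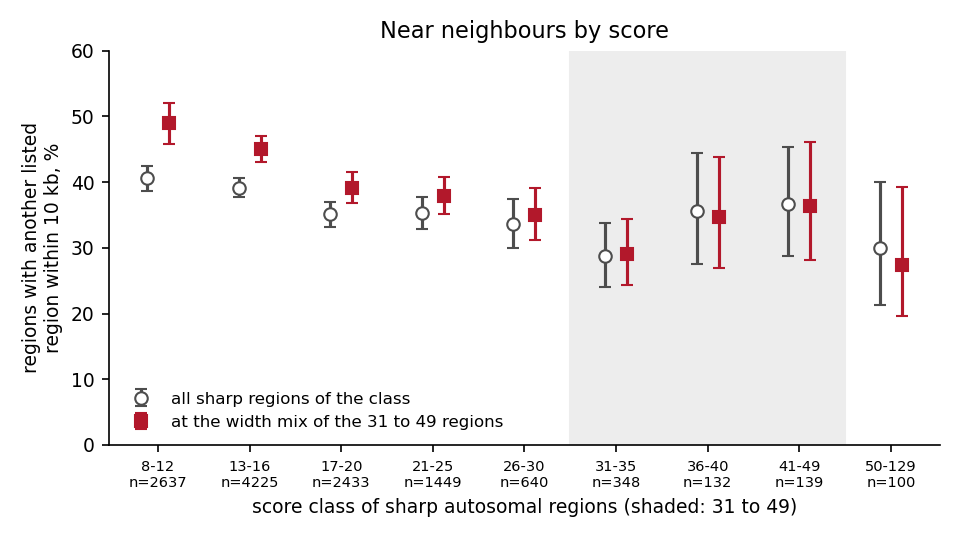
Percent of sharp autosomal regions with another listed region within 10 kb (y axis) by score class (x axis, with the number of regions), for all regions of a class (open grey circles, exact 95% intervals) and at the width mix of the regions scoring 31 to 49, from 1500 bp up (red squares, 95% intervals). The red squares go down from 48.98% at scores of 8 to 12 to 29.1% at 31 to 35, and the classes above that have wide, overlapping intervals.

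Against wide regions of the same scores the sharp ones stood much farther from their neighbours. Of the 685 wide regions, 60.1% (56.4 to 63.8%) had another region within 10 kb, a difference of -28.2 points (-33.4 to -22.8), and their median distance to it was 6575 bp. The wide ones were also more often within 1 kb of a neighbour, 22.9% (19.8 to 26.3%) against 6.30%. Within 500 kb to either side they had a median of 18 other regions where the sharp ones had 12. Their edges reach farther than those of sharp regions, so a distance between edges is shorter for them at a given distance between centres. Measured between centres, a listed region lay within 50 kb of 71.6% (67.8 to 75.1%) of the sharp and 91.5% (89.2 to 93.5%) of the wide ones, a difference of -20.0 points (-24.2 to -15.7).

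Where sharp regions did have near neighbours, the groups were small. Counting runs of regions less than 10 kb apart, 120 of the 619 were in a pair, 50 in a run of 3, and 17 in a run of 5 or more, 2.75% (1.61 to 4.36%). Of the lower-scoring sharp regions 4.10% (3.75 to 4.48%) were in runs of 5 or more, a difference of -1.36 points (-2.56 to 0.298), whose interval includes 0. Wide regions of the same scores were in such runs in 12.7% (10.3 to 15.4%) of cases. The longest run with a sharp region scoring 31 to 49 held 8 regions, and the longest with a lower-scoring one held 16. A region within 10 kb on both sides was found for 30 of the 619, 4.85% (3.29 to 6.85%), against 7.56% (7.08 to 8.06%) of the lower-scoring ones, a difference of -2.72 points (-4.35 to -0.660).

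The nearest regions scored much like those of lower-scoring sharp regions and were somewhat less often wide. The nearest region had a median score of 16 (quartiles 13 and 22), against 17 for the nearest region to a lower-scoring sharp one. It was wide in 19.1% (16.04 to 22.4%) of cases against 22.7% (22.0 to 23.5%), a difference of -3.67 points (-6.79 to -0.263). Among neighbours within 10 kb the wide share was 30.8% (24.5 to 37.7%) against 29.9% (28.5 to 31.3%). A region scoring 50 or more was the nearest one for 12 of the 619, 1.94% (1.01 to 3.36%), and for 1.96% (1.71 to 2.23%) of the lower-scoring ones. Another sharp region scoring 31 to 49 was the nearest for 31 of the 619, 5.01% (3.43 to 7.03%), and for 4.04% (3.69 to 4.42%) of the lower-scoring ones, a difference of 0.967 points (-0.658 to 3.02). A wide region had its centre within 50 kb for 29.2% (25.7 to 33.0%) of the 619 and for 34.9% (34.1 to 35.8%) of the lower-scoring ones, a difference of -5.69 points (-9.36 to -1.84). For a region scoring 50 or more the shares were 3.55% (2.24 to 5.33%) and 4.38% (4.01 to 4.78%), with a difference of -0.829 points (-2.20 to 0.986). Because scores of 31 up are rare, 169 of the 198 sharp regions that were in a run were its highest member, which the rule largely sets.

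The 15 regions with the score of 49 lay on 8 chromosomes. Chromosome 2 held chr2:57305933-57307539, chr2:147984099-147986353 and chr2:172851921-172854619, and chromosome 13 held chr13:13552514-13555470, chr13:49063347-49065244 and chr13:91362387-91364283. A pair each lay on chromosome 7, at chr7:30987275-30989817 and chr7:140827984-140830261, on chromosome 16, at chr16:32607900-32610661 and chr16:87353850-87355826, and on chromosome 17, at chr17:24550889-24552968 and chr17:44241659-44243456. The others were chr4:55662841-55665223, chr8:4676538-4679514 and chr10:76721445-76723149. Their widths ran from 1606 to 2976 bp. Surroundings differed widely among them. The region at 49063347 on chromosome 13 had a neighbour 112 bp away and was in a run of 4, and the one at 30987275 on chromosome 7 was in a run of 6. At the other end, the one at 44241659 on chromosome 17 lay 437 kb and the one at 57305933 on chromosome 2 lay 215 kb from any listed region.

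The 5 most isolated sharp regions were picked by their distance to the nearest listed region, so these distances are a description. On chromosome 12, chr12:95392271-95394157 scored 46 and lay 1539 kb from the nearest listed region. It was followed by chr3:7365731-7367269, which scored 33 and stood 1297 kb from the nearest region, and chr2:82691762-82694374, which scored 32 and stood 860 kb away. Then came chr1:23262725-23264555 with a score of 32 at 747 kb, and chr9:24273814-24275725 with a score of 37 at 679 kb. Of these 5 only the one on chromosome 12 scored above 40. A neighbour was more than 100 kb away for 75 of the 619 regions, 12.1% (9.65 to 14.9%), and for 13.4% (12.8 to 14.0%) of the lower-scoring ones.

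Sharp regions scoring 31 to 49 were few, at 0.259 per Mb over all autosomes. The length of the gaps between them depends on that number, and no expected length was computed. Between successive ones on a chromosome the median gap was 1.81 Mb (1.44 to 2.09 Mb), with quartiles of 532 kb and 4.82 Mb over 600 gaps. Of these gaps, 9 were 10 kb or less, and 43 were 100 kb or less, while 54 were over 10 Mb. In 32 cases no listed region of any kind lay between the successive ones. Another of the 619 had its centre within 50 kb for 55 of them, 8.89% (6.76 to 11.4%), while 6.37% (5.93 to 6.83%) of lower-scoring sharp regions had one of the 619 that near, a difference of 2.52 points (0.345 to 5.08). Within 500 kb it was 41.7% (37.8 to 45.7%) against 36.4% (35.5 to 37.3%), a difference of 5.31 points (1.30 to 9.41). Wide regions of the same scores had one within 50 kb in 8.32% (6.36 to 10.6%) of cases and within 500 kb in 44.8% (41.05 to 48.6%). The differences from these, 0.564 points (-2.58 to 3.76) and -3.14 points (-8.60 to 2.36), have intervals that include 0, so sharp and wide regions were not told apart in this measure. In the counts for the 619 both regions of a pair count each other, so the intervals are too narrow, and the mean number within 500 kb was 0.517 against 0.498 for lower-scoring sharp regions. The closest pair was chr8:113814950-113817052 and chr8:113818293-113820380, 1241 bp apart, with scores of 32 and 47. On chromosome 9 chr9:56206317-56208347 and chr9:56210192-56212948 were 1845 bp apart and scored 31 and 37. On chromosome 7 chr7:148092938-148095577 and chr7:148098003-148099995 were 2426 bp apart and scored 39 and 36. These 3 pairs were followed by chr9:88416566-88419059 and chr9:88423724-88425944, with a gap of 4665 bp and scores of 44 and 36, and by chr11:120345134-120347049 and chr11:120351896-120354451, with a gap of 4847 bp and a score of 36 each.

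Counted in windows of 1 Mb, the 619 regions were spread over 487 of the 1813 autosomal windows that held any listed region. A single one lay in 378 of these windows, 2 in 89 and 3 in 18. The fullest window, from 91 to 92 Mb of chromosome 2, held 5 among 19 listed regions, with scores of 32 to 41, at chr2:91022431-91024308, chr2:91489065-91491155, chr2:91695160-91697091, chr2:91856582-91858631 and chr2:91898104-91901082. The next, from 35 to 36 Mb of chromosome 17, held 4 among 34 listed regions, with scores of 31 to 48. The window from 126 to 127 Mb of chromosome 2, the first of the 18 with 3, held them among only 6 listed regions. Apart from that, some long stretches had other SF1 ChIP regions but none of these. From 76970294 to 121244781 on chromosome 14, 44.3 Mb, there were 97 listed regions with scores up to 71, and none was both sharp and between 31 and 49. On chromosome 3 the stretch from 51029497 to 89576114, 38.5 Mb, held 176 listed regions, and on chromosome 8 the one from 37796677 to 71392870, 33.6 Mb, held 75. These stretches were picked as the longest of 600 gaps. Lower-scoring sharp regions in them numbered 71, 142 and 67, in that order. Over all autosomes, 5.16 of every 100 sharp regions scoring under 50 scored 31 to 49.

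All 19 autosomes carried sharp regions scoring 31 to 49. Counts ran from 19 each on chromosomes 3 and 16 to 53 on chromosome 2, with 47 each on chromosomes 7 and 11. Per Mb between the first and last listed region of a chromosome, the range was from 0.125 on chromosome 3 to 0.448 on chromosome 19, with 0.259 over all autosomes. This order largely followed the density of lower-scoring sharp regions, with a Spearman correlation of 0.90 over the 19 chromosomes, which come from the one library and differ in length and gene content. Chromosome 11, gene-rich and the densest in lower-scoring sharp regions, held 7.59% (5.63 to 9.97%) of the sharp regions scoring 31 to 49 and 7.85% (7.37 to 8.36%) of the lower-scoring ones. The interval of that difference, -0.260 points (-2.29 to 2.17), includes 0.

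The share of sharp regions that scored 31 to 49 varied modestly between chromosomes. Over all autosomes it was 5.16 per 100 sharp regions scoring under 50 (4.77 to 5.57). It was highest on chromosome 19 with 7.49 (4.95 to 10.8), followed by chromosome 10 with 6.84 (4.99 to 9.10), chromosome 17 with 6.22 (4.27 to 8.72) and chromosome 9 with 6.07 (4.43 to 8.09). It was lowest on chromosome 3 with 3.30 (2.00 to 5.11), chromosome 1 with 3.54 (2.36 to 5.07) and chromosome 12 with 4.13 (2.58 to 6.25). The intervals of chromosomes 3 and 1 lay below the pooled value, and 0 intervals lay above it. With 19 chromosomes looked at and no adjustment for that number, those cases stand as a description. Neighbouring chromosomes in the order had widely overlapping intervals. Chromosome 19 exceeded chromosome 3 by 4.19 per 100 (1.07 to 7.73), a pair chosen as the extremes. The Spearman correlation of this share with the density of lower-scoring sharp regions over the 19 chromosomes was 0.60, and the Pearson correlation was 0.43.

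**Figure D5:**
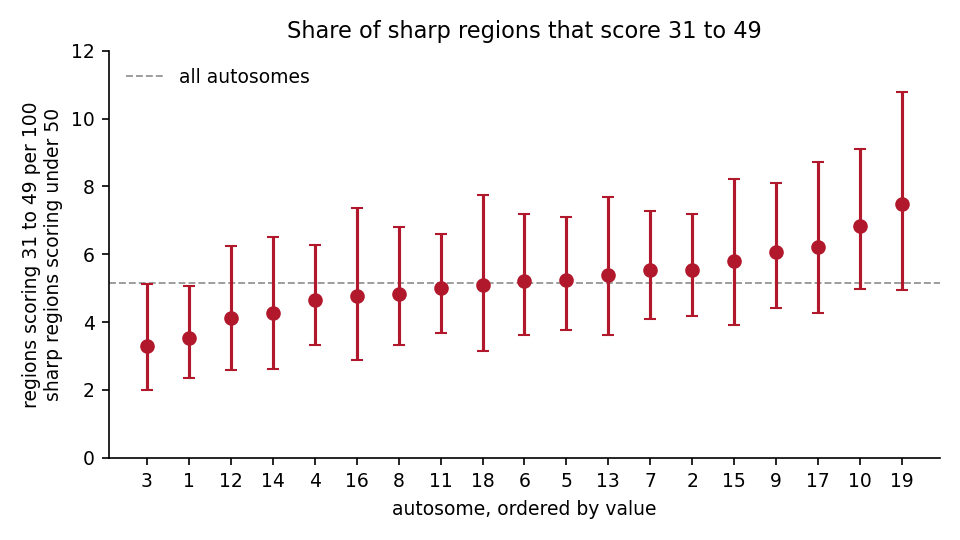
Number of regions scoring 31 to 49 per 100 sharp regions scoring under 50 (y axis) on each of the 19 autosomes (x axis, ordered by value), with exact 95% intervals and a dashed line at the value for all autosomes, 5.16. Points run from 3.30 on chromosome 3 to 7.49 on chromosome 19, and the intervals of chromosomes 3 and 1 end just below the dashed line.

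The lower share of near neighbours was seen on most chromosomes but not all. It was lower than among lower-scoring sharp regions of the same chromosome on 14 of the 19 autosomes and higher on 5, namely chromosomes 1, 3, 4, 7 and 9. The widest gaps were on chromosome 12, where 4 of 21 sharp regions had a near neighbour, 19.05% (5.45 to 41.9%) against 38.2%, on chromosome 14, with 3 of 20, 15% (3.21 to 37.9%) against 33.0%, and on chromosome 11, with 12 of 47, 25.5% (13.9 to 40.3%) against 43.1% (39.8 to 46.4%). On chromosome 9, at the other end, it was 19 of 43, 44.2% (29.1 to 60.1%) against 38.2%. Numbers per chromosome were small, and whether the difference varies between chromosomes was not tested. With each chromosome left out in turn, the difference over the rest stayed between -6.72 and -4.85 points, with each of the 19 intervals below 0.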

How the data were processed

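Chromatin from whole uterus was sequenced after SF1 immunoprecipitation, next to an input library, as single-end reads of 50 nt, per the labels' protocols. Reads were aligned with BWA to mm9, per the submitters' processing notes. No source used here gives the BWA version, how regions were called, at which threshold, or how the input was used. The authors deposited regions with a score in whole numbers and no header. Coordinates, chromosome, start and end, are other deposited values, printed as given, and may be off by 1 bp. Read depth is unknown, and the input library was not analysed here.

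The regions and comparisons were chosen with earlier results of these data known. Width is end minus start, and distance runs between edges on the same chromosome. Shares carry exact Clopper-Pearson 95% intervals and medians order-statistic intervals. Intervals of differences combine them by variance recovery (MOVER). They cover counting error only. No p-value was computed. Regions named are those with the top score of the range, the 5 narrowest, widest and most isolated, the 5 closest pairs, and the 3 fullest windows and longest stretches without one. No genes or sequences are given, since the gene table and promoter sequences at hand are on GRCm38.p6, another build. Code was tested on simulated regions. Python 3.11.15, numpy 2.4.6, pandas 2.3.3 and scipy 1.17.1 were used.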

Additional observations from a re-analysis of the deposited data

How the results depend on the processing

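Width limits of 2000 and 4000 bp, a lowest score of 36, a floor of 13 for lower-scoring regions, merging within 1 kb, neighbour distances of 5 and 25 kb, other neighbours, width classes and centre distances were planned; leaving out chromosomes and pairing width classes with other choices were added after seeing the data. The number of regions, 619, became 196 at 2000 bp and 271 from a score of 36, by construction. The difference in near neighbours stayed below 0 in all 31 alternatives, but of the 9 planned ones 4 had intervals that include 0 (4000 bp, a score of 36, merging, 25 kb); the intervals below 0 in the other 5, the 3 added pairings and the 19 chromosome omissions are not independent of each other. It moved to -1.65 points from a score of 36, -1.10 at 25 kb and -10.2 within width classes. The difference in median width, 415 bp, was 218 bp at 2000 bp, 631 bp at 4000 bp, 489 bp from a score of 36 and 355 bp with the floor of 13. The difference in median distance, 3266 bp, ran from -98.5 bp at 4000 bp to 5298 bp at 2000 bp over 26 alternatives; the interval lay above 0 in 5 of them, the 2000 bp limit (531 to 14396 bp) and 4 chromosome omissions, and included 0 in the others and as reported. The share on chromosome 11 differed by -0.473 to 2.01 points over 23 alternatives, with 0 intervals apart from 0. The highest minus the lowest chromosome stayed between 2.60 and 5.21 per 100 over 24. The extremes were picked anew in each, so this value cannot fall below 0. Most chromosome omissions left both extremes in place and the value unchanged, so its range is no check of stability. The cause of the moves in this section was not tested. No paired analysis was possible because there is 1 ChIP library and 1 input library. Leaving out a replicate was likewise not an option.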

Other observations

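Along the chromosomes, each cut into 5 equal parts from the first to the last listed region, the sharp regions scoring 31 to 49 lay most often in the last part, 28.9% (25.4 to 32.7%), as did lower-scoring sharp regions with 26.8% (25.9 to 27.6%). Mouse chromosomes are numbered from the end that holds the centromere, so the last part is the farthest from it. The first part held 19.1% (16.04 to 22.4%) against 15.6% (14.9 to 16.3%), and the second 14.4% (11.7 to 17.4%) against 16.9% (16.2 to 17.6%).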
